A study of Mus musculus with 108 samples.

Results

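Genes that display peptides to T cells on major histocompatibility complex (MHC) class I and class II molecules were followed through the stages of an inherited mouse glaucoma. The 9 members were H2-Aa, H2-Ab1, H2-Eb1, Cd74 and Ciita on the class II side and B2m, Tap1, H2-D1 and H2-K1 on the class I side, out of 18194 genes that could be named on the array. A member was read from probe sets (groups of short probes for 1 transcript) assigned to that gene alone. Where a gene had several, the probe set with the highest mean in a tissue stood for it, and the others served as a check. Members were thus taken by name, but the choice was made with earlier results of these data known.

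Levels came from Affymetrix mouse genome expression arrays of the optic nerve head, the place where ganglion cell axons leave the eye, and of the retina of the same eyes. Severe, moderate and no or early glaucoma eyes were from DBA/2J mice aged 10.5 months, sorted by the labels into these stages, and preglaucoma eyes were from DBA/2J mice aged 4.5 months. Controls were D2-Gpnmb+ mice aged 10.5 months, which share the DBA/2J background but carry an intact Gpnmb and are labelled as free of glaucoma. All mice were labelled female. The optic nerve head arrays numbered 10 preglaucoma, 21 no or early, 9 moderate, 10 severe and 10 control, and the retina arrays 20 no or early, 8 moderate, 10 severe and 10 control. No or early eyes came as sets 1 and 2, a division whose basis the labels do not give, and were compared as the mean of the sets. Per the labels' protocol the optic nerve head punch also takes in a little central retina, choroid and sclera, so resident and invading cells of several tissues contribute to its levels. In such bulk tissue, fewer cells of a type and less RNA per cell cannot be told apart.

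Class I molecules sit on nearly all nucleated cells. H2-K1 and H2-D1 code for heavy chains that pair with beta-2-microglobulin, the product of B2m, and Tap1 is part of the transporter that brings peptides from the cytosol to them. Class II molecules are carried mainly by dendritic cells, B cells, macrophages and activated microglia. H2-Aa and H2-Ab1 code for the alpha and beta chains of I-A, H2-Eb1 for the beta chain of I-E, Cd74 for the invariant chain that guards the groove until it is loaded, and Ciita for the transactivator that switches class II genes on. Interferon gamma raises both classes, and healthy neural retina is known for low amounts of either.

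Promoter sequences of 5 members are shown because class I and class II genes share an arrangement of short elements on which the class II transactivator and its class I counterpart Nlrc5 act. They are RefSeq sequences of build GRCm38.p6, written 5′ to 3′ and ending just before the annotated start of the gene or within the 250 bases before it. Capitals mark TGANG, the core of the X2 element, followed by ATTGG, the Y box (in H2-Eb1 TGANG matched at overlapping positions). In H2-D1 and H2-K1 the first and second runs of capitals mark the NF-kappa B element of the class I enhancer and the core of the interferon response element. The windows are H2-Aa at chr17:34287824-34287923 (minus strand), H2-Eb1 at chr17:34305757-34305866 (plus strand), B2m at chr2:122147537-122147686 (plus strand), H2-D1 at chr17:35262904-35263093 (plus strand) and H2-K1 at chr17:34000348-34000477 (minus strand).
H2-Aa: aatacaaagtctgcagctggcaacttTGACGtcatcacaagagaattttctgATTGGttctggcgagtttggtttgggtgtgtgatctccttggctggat
H2-Eb1: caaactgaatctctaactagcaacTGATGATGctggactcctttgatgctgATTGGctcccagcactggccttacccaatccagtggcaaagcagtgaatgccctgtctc
B2m: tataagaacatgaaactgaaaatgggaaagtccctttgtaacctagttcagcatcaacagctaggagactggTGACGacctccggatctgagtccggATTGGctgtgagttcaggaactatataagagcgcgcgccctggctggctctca
H2-D1: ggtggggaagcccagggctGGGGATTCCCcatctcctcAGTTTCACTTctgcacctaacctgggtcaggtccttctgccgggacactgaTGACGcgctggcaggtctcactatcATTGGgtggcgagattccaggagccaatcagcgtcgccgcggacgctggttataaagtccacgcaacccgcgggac
H2-K1: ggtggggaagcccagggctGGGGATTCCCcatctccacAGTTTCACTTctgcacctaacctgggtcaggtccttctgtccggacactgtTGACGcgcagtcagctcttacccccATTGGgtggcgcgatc

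A promoter window was at hand for 6 of the 9 members. TGANG followed by ATTGG with 24 to 27 bases from start to start, searched on both strands, was present in 5 of these 6 windows and absent from that of Tap1. Among 32851 mouse promoter windows of the same length, 1.041% held such a pair, while TGANG alone was in 84.807% and ATTGG alone in 33.85%. The NF-kappa B letters were in 0.085% and the interferon response letters in 0.128% of the windows. H2-D1 and H2-K1 share a run of 47 identical bases that holds the NF-kappa B element and ends before the interferon element. The letters were chosen after the member sequences had been read, so these shares only describe them.

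Gpnmb itself was read to check the labels. It averaged 6.93 ± 0.494 in severe and 9.23 ± 0.434 in control optic nerve heads (log2 level, mean ± SD, n = 10 each), and 5.41 ± 0.337 in severe and 7.65 ± 0.199 in control retinas. Levels here are the deposited log2 values, and a difference of 1 log2 unit is a doubling. A gene was tested when it reached log2 5 on at least 8 arrays of a tissue, and called at a Benjamini-Hochberg adjusted p under 0.05 in limma over all genes tested (12100 in the optic nerve head, 11322 in the retina). By this filter 8 members could be tested in the optic nerve head (all but Ciita) and 6 in the retina (all but Ciita, H2-Eb1 and Tap1). The arrays came from 50 mice, and eyes of 1 mouse were treated as a block. Comparisons with control share the same control arrays, so their results are not independent of each other. Control also differs from every DBA/2J group in its Gpnmb genotype, so genotype and glaucoma cannot be told apart in a comparison with control. Before any result, 4 observations on arrays bear on the members. Moderate retinas 2 and 8 were the highest of their group in B2m, H2-D1 and H2-K1, far above the others in B2m and H2-K1 and close to the next array in H2-D1 (9.75 and 9.52). Control optic nerve head 7 and moderate optic nerve head 5 lay at the top and the bottom of the class II genes. Severe optic nerve head 6 had a mean of 4.20 over the photoreceptor list, where severe 3 was at 7.99 and the other severe arrays between 9.63 and 10.39. The severe and preglaucoma optic nerve heads also stood apart together in a set of probe sets, described with H2-D1.

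In the retina, class I genes rose in moderate glaucoma, and B2m rose in both moderate and severe glaucoma. B2m ran from 9.91 to 12.11 in moderate retinas (median 10.55), from 10.18 to 10.73 in severe retinas (median 10.55) and from 9.49 to 9.84 in control retinas (median 9.72). All 8 moderate and all 10 severe retinas thus lay above the highest control. The difference was 1.05 ± 0.168 for moderate minus control (adjusted p = 1.32e-05) and 0.81 ± 0.159 for severe minus control (adjusted p = 8.51e-05). A gene with no overlap between groups was found in 1.38% of genes tested for moderate against control and in 7.29% for severe against control. No or early retinas (9.38 to 10.22, median 9.87) overlapped the controls, with a B2m difference of 0.18 ± 0.137 that did not pass (adjusted p = 0.841). Against these eyes of the same strain B2m rose by 0.87 ± 0.147 in moderate and by 0.63 ± 0.137 in severe retinas (adjusted p = 3.57e-05 and 0.000232).

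The heavy chain genes also rose in moderate retinas, and neither passed the test in severe retinas. H2-D1 ran from 8.48 to 10.40 in moderate retinas (median 8.86) and from 8.03 to 8.46 in controls (median 8.26), without overlap. It rose by 0.89 ± 0.14, or 1.85-fold (adjusted p = 1.14e-05). H2-K1 ran from 6.86 to 8.95 in moderate retinas (median 7.23) against 6.72 to 7.02 in controls (median 6.90), with 7 of 8 moderate retinas above the highest control. It rose by 0.77 ± 0.156 (adjusted p = 0.000435). In severe retinas H2-D1 ran from 8.16 to 8.68 (median 8.40), and its difference from controls was 0.15 ± 0.133 (adjusted p = 0.421). H2-K1 ran from 7.0 to 7.30 in severe retinas (median 7.16), with 9 of 10 above the highest control, but its difference of 0.27 ± 0.147 did not pass (adjusted p = 0.16). The direct comparison of severe with moderate retinas gave lower H2-D1 by 0.74 (log2 difference -0.74 ± 0.139, adjusted p = 5.71e-05) and lower H2-K1 (-0.50 ± 0.155, adjusted p = 0.00935), while B2m did not pass (-0.24 ± 0.167, adjusted p = 0.255). With only the groups compared in the fit, H2-K1 did not pass for moderate against control (0.78 ± 0.239, adjusted p = 0.0593) or for severe against moderate (adjusted p = 0.0943), and passed for severe against control (0.27 ± 0.0477, adjusted p = 0.000114).

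**Figure D1:**
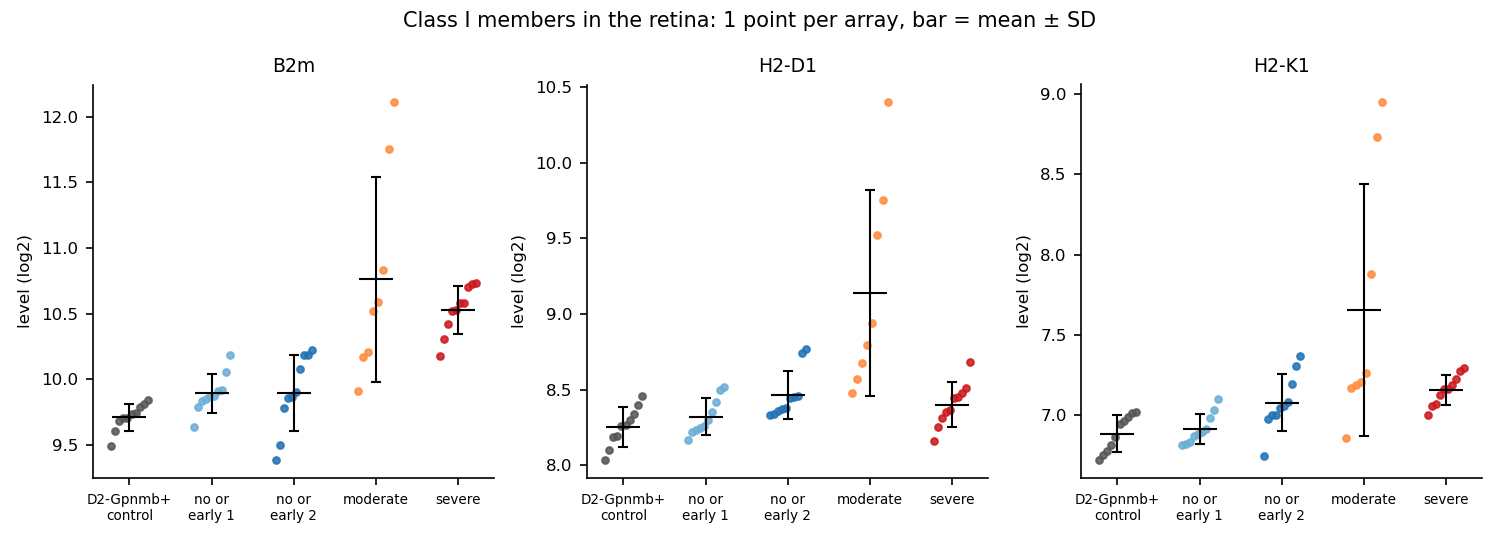
Levels (log2) of B2m, H2-D1 and H2-K1 in the retina by group, with 1 point per array and the mean ± SD as a bar. All moderate and severe points of B2m lie above the control points, and the highest moderate points of each gene belong to replicates 2 and 8.

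Moderate retinas 2 and 8 were the highest of their group in all of these genes. B2m was 12.11 and 11.76 in these arrays and 9.91 to 10.83 in the other 6. H2-D1 was 10.40 and 9.75 against 8.48 to 9.52 in the others, and H2-K1 was 8.95 and 8.73 against 6.86 to 7.88. Without these arrays B2m still rose against control (0.66 ± 0.109, adjusted p = 3.75e-05), as did H2-D1 (0.58 ± 0.0946, adjusted p = 3.16e-05) and H2-K1 (0.38 ± 0.0847, adjusted p = 0.00266). The lower H2-K1 in severe than in moderate retinas did not pass without them (-0.10 ± 0.0843, adjusted p = 0.35), while H2-D1 stayed lower (-0.43 ± 0.0941, adjusted p = 0.000571). B2m, not called over all arrays, was then at 0.16 ± 0.109 for severe minus moderate, with the sign turned (adjusted p = 0.277). In the same fit H2-K1 passed for severe against control (0.27 ± 0.0736, adjusted p = 0.00343), with a standard error of 0.0736 in place of 0.147. Markers of microglia and macrophages moved with this split. The mean level over the 7 tested genes of that list was 7.73 and 7.12 in moderate retinas 2 and 8, against 5.50 to 6.48 in the other moderate retinas, and it ran from 5.72 to 6.16 in severe and from 5.08 to 5.48 in control retinas. Reactive glia moved in part with it, at list means of 9.53 and 8.28 against 7.50 to 9.21. Their part in the class I levels was not tested.

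Class II genes stood low in the retina. Levels in control retinas averaged 5.03 ± 0.251 for Cd74, 5.00 ± 0.186 for H2-Aa and 5.44 ± 0.172 for H2-Ab1, all near the floor of the filter, and H2-Eb1 lay under it at 3.78 ± 0.109 (n = 10). Cd74 ran from 5.14 to 6.07 in moderate retinas (median 5.32) and from 4.47 to 5.35 in controls (median 5.07). It rose by 0.43 ± 0.112 (adjusted p = 0.00532), but by only 0.27 ± 0.106 without replicates 2 and 8, which did not pass (adjusted p = 0.134), nor did it with only the groups compared in the fit (0.44 ± 0.135, adjusted p = 0.0576). H2-Aa ran from 5.03 to 5.66 in severe retinas (median 5.38) and from 4.63 to 5.37 in controls (median 4.97), and rose by 0.38 ± 0.131 (adjusted p = 0.0214). H2-Ab1 was lower in severe than in moderate retinas (-0.35 ± 0.102, adjusted p = 0.00558; -0.17 ± 0.0862, adjusted p = 0.119, without moderate replicates 2 and 8) and lower than in no or early retinas (-0.26 ± 0.0835, adjusted p = 0.0118). The alpha chain gene H2-Aa was higher in severe than in no or early retinas (0.28 ± 0.113, adjusted p = 0.039; adjusted p = 0.0632 without a severe mouse whose Xist level goes against its female label).

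Counted together, 4 of 6 tested members were called higher in moderate retinas against control (B2m, H2-D1, H2-K1 and Cd74), where 15.5% of all genes were called in either direction and 7.08% higher. In severe against control 2 of 6 members were called, B2m and H2-Aa, both higher, where 32% of all genes were called and 13.8% higher. In no or early against control 0 of 6 were called (0.0442% of all genes), although H2-Ab1 had an unadjusted p = 0.0464 (difference 0.17 ± 0.084). Against no or early eyes 4 of 6 were higher in moderate retinas, B2m, H2-D1, H2-K1 and Cd74 (15.2% of all genes called, 7.65% higher). Of these, Cd74 (0.28 ± 0.0979, adjusted p = 0.0417) lost its call under 5 of 10 alternatives, and was at 0.12 ± 0.095 without moderate 2 and 8 (adjusted p = 0.585). In severe against no or early retinas 2 of 6 were higher and 1 lower (44.1% called, 19.9% higher and 24.2% lower). In severe against moderate 3 of 6 were lower (38.3% called, 21.5% lower). No or early sets 2 and 1 gave 0 of 6 tested members called by limma, none with an unadjusted p under 0.05 (0% of genes called). The median difference over the 6 members was 0.60 in moderate and 0.24 in severe retinas against control, beside medians of -0.01 and -0.02 over all genes. All control mice carry numbers of 1 range (the same leading digits), whereas the 10.5-month DBA/2J groups spread over several. Only 2 moderate retinas fall in the controls' range, and among mice of that range none of the 4 moderate rises passed (B2m 0.50 ± 0.146, adjusted p = 0.0916), while B2m still rose in severe retinas (0.96 ± 0.119, adjusted p = 1.74e-05). H2-Aa did not pass in severe retinas there (0.29 ± 0.133, adjusted p = 0.139).

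**Figure D2:**
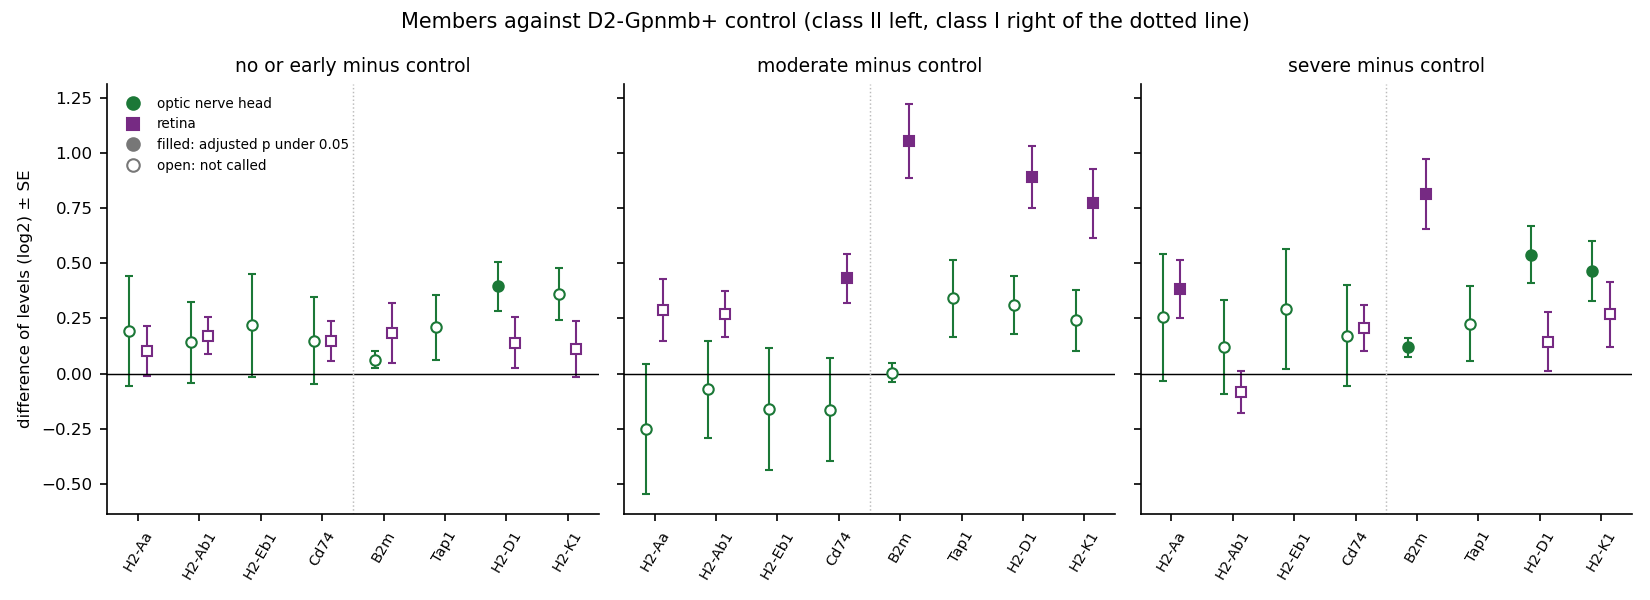
Log2 difference from D2-Gpnmb+ control ± SE for each tested member in no or early, moderate and severe glaucoma, with circles for the optic nerve head, squares for the retina and filled symbols for an adjusted p under 0.05. B2m is the only member called in the retina at both the moderate and the severe stage, and in the optic nerve head the filled symbols are on class I genes only.

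Other genes of the class I pathway were called more in moderate than in severe retinas, a difference between counts that was not tested. Of the 11 tested genes on the list, 4 rose and 1 fell in moderate retinas against control, or 45.5% beside the 15.5% of all genes. These included Psmb8, an immunoproteasome subunit (1.06 ± 0.19, adjusted p = 8.83e-05), the proteasome activator Psme1 (0.39 ± 0.107, adjusted p = 0.00925) and the nonclassical class I gene H2-M3 (0.51 ± 0.144, adjusted p = 0.0117), while Hfe, an iron-regulating relative of class I, fell (-0.47 ± 0.125, adjusted p = 0.00625). In severe retinas 0 of the 11 rose and 2 fell, a share of 18.2% under the 32% of all genes. They were the peptide transporter subunit Tap2 (-0.27 ± 0.0887, adjusted p = 0.0158) and the immunoproteasome subunit Psmb10 (-0.24 ± 0.093, adjusted p = 0.046). Psmb8 was lower in severe than in moderate retinas (-0.78 ± 0.189, adjusted p = 0.00119).

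On the class II pathway list 6 of 14 rose and 2 fell in moderate (57.1%) and 6 rose and 1 fell in severe retinas (50%) against control. Of all genes, 15.5% were called in moderate and 32% in severe retinas. Ctss, the lysosomal protease that trims the invariant chain, rose by 1.29 ± 0.13 in moderate and by 0.97 ± 0.122 in severe retinas (adjusted p = 8.0e-10 and 2.1e-08). H2-DMa, a chain of the chaperone that loads class II with peptide, fell in severe retinas (-0.36 ± 0.129, adjusted p = 0.0294). Of 9 tested interferon gamma genes 5 rose in moderate retinas, among them Irf1, a transcription factor of class I genes (0.76 ± 0.109, adjusted p = 1.87e-06), and the GTPase Gbp2 (1.55 ± 0.256, adjusted p = 2.36e-05). These 5 are 55.6% of the list. In severe retinas 2 rose and 1 fell, the receptor chain Ifngr2 (-0.94 ± 0.101, adjusted p = 3.99e-10). That is 33.3% of the list, near the 32% of all genes. Microglia and macrophage markers rose against control in 6 of 7 tested genes in moderate (85.7%) and in 5 of 7 in severe retinas (71.4%). Compared with no or early retinas of the same strain, 6 of 7 rose in moderate but only 1 of 7 in severe retinas. Of all genes, 15.2% were called in the former comparison and 44.1% in the latter. No gene of the T and NK cell list reached the filter in the retina, and of the B cell list only Ighm did.

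The effect on B2m, on the log2 scale, differed between the tissues of the same eyes. The optic nerve head level minus the retina level of an eye was compared between groups in 48 eyes. For B2m this tissue difference was 1.70 in moderate, 2.02 in severe and 2.72 in control eyes. It fell by 1.03 ± 0.172 on the log2 scale in moderate against control (adjusted p = 9.31e-05) and by 0.68 ± 0.163 in severe against control (adjusted p = 0.00216). All 10 severe eyes lay below the lowest control eye, a lack of overlap seen in 1.38% of the genes tested, and so did 7 of 8 moderate eyes. B2m was the only 1 of 6 tested members called in either comparison, where 7.13% of 10763 genes were called in moderate (4.58% lower) and 19.5% in severe eyes (12.3% lower). In no or early eyes 0 of 6 members were called by limma, none with an unadjusted p under 0.05 (0.53% of genes called). For H2-D1 the tissue difference moved by -0.53 ± 0.2 in moderate eyes (adjusted p = 0.0959) and by 0.40 ± 0.189 in severe eyes (adjusted p = 0.136), neither past the threshold. Without moderate replicates 2 and 8 the B2m values were -0.64 ± 0.117 in moderate and -0.70 ± 0.101 in severe eyes (adjusted p = 0.000371 and 1.74e-06). The tissues started from unlike levels, with B2m averaging 12.43 in control optic nerve heads and 9.71 in control retinas. What part the high optic nerve head level has in its smaller log2 change was not tested.

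In the optic nerve head, class I heavy chains were higher in severe glaucoma than in control. H2-D1 ran from 11.11 to 12.10 in severe (median 11.47) and from 10.55 to 11.42 in control optic nerve heads (median 11.004), with 6 of 10 severe arrays above the highest control. It rose by 0.54 ± 0.13, or 1.45-fold (adjusted p = 0.00117). H2-K1 ran from 9.94 to 10.92 in severe (median 10.33) and from 9.38 to 10.40 in control arrays (median 9.84) and rose by 0.46 ± 0.135 (adjusted p = 0.00745). B2m ran from 12.44 to 12.65 in severe (median 12.54) and from 12.25 to 12.53 in control arrays (median 12.45). It rose by 0.12 ± 0.0427 (adjusted p = 0.0324), which did not pass with only severe and control arrays in the fit (adjusted p = 0.0969). Severe array 6, with little photoreceptor signal, was the highest of its group in B2m, H2-D1 and H2-K1 (12.65, 12.10 and 10.92), and severe array 3 was the second highest in H2-D1 and H2-K1. Without array 6, H2-D1 (0.48 ± 0.128, adjusted p = 0.00402) and H2-K1 (0.40 ± 0.134, adjusted p = 0.023) still rose, and B2m did not pass (0.11 ± 0.0436, adjusted p = 0.067). Without arrays 3 and 6 only H2-D1 rose (0.42 ± 0.13, adjusted p = 0.0167), and H2-K1 did not pass (0.34 ± 0.135, adjusted p = 0.0718).

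**Figure D3:**
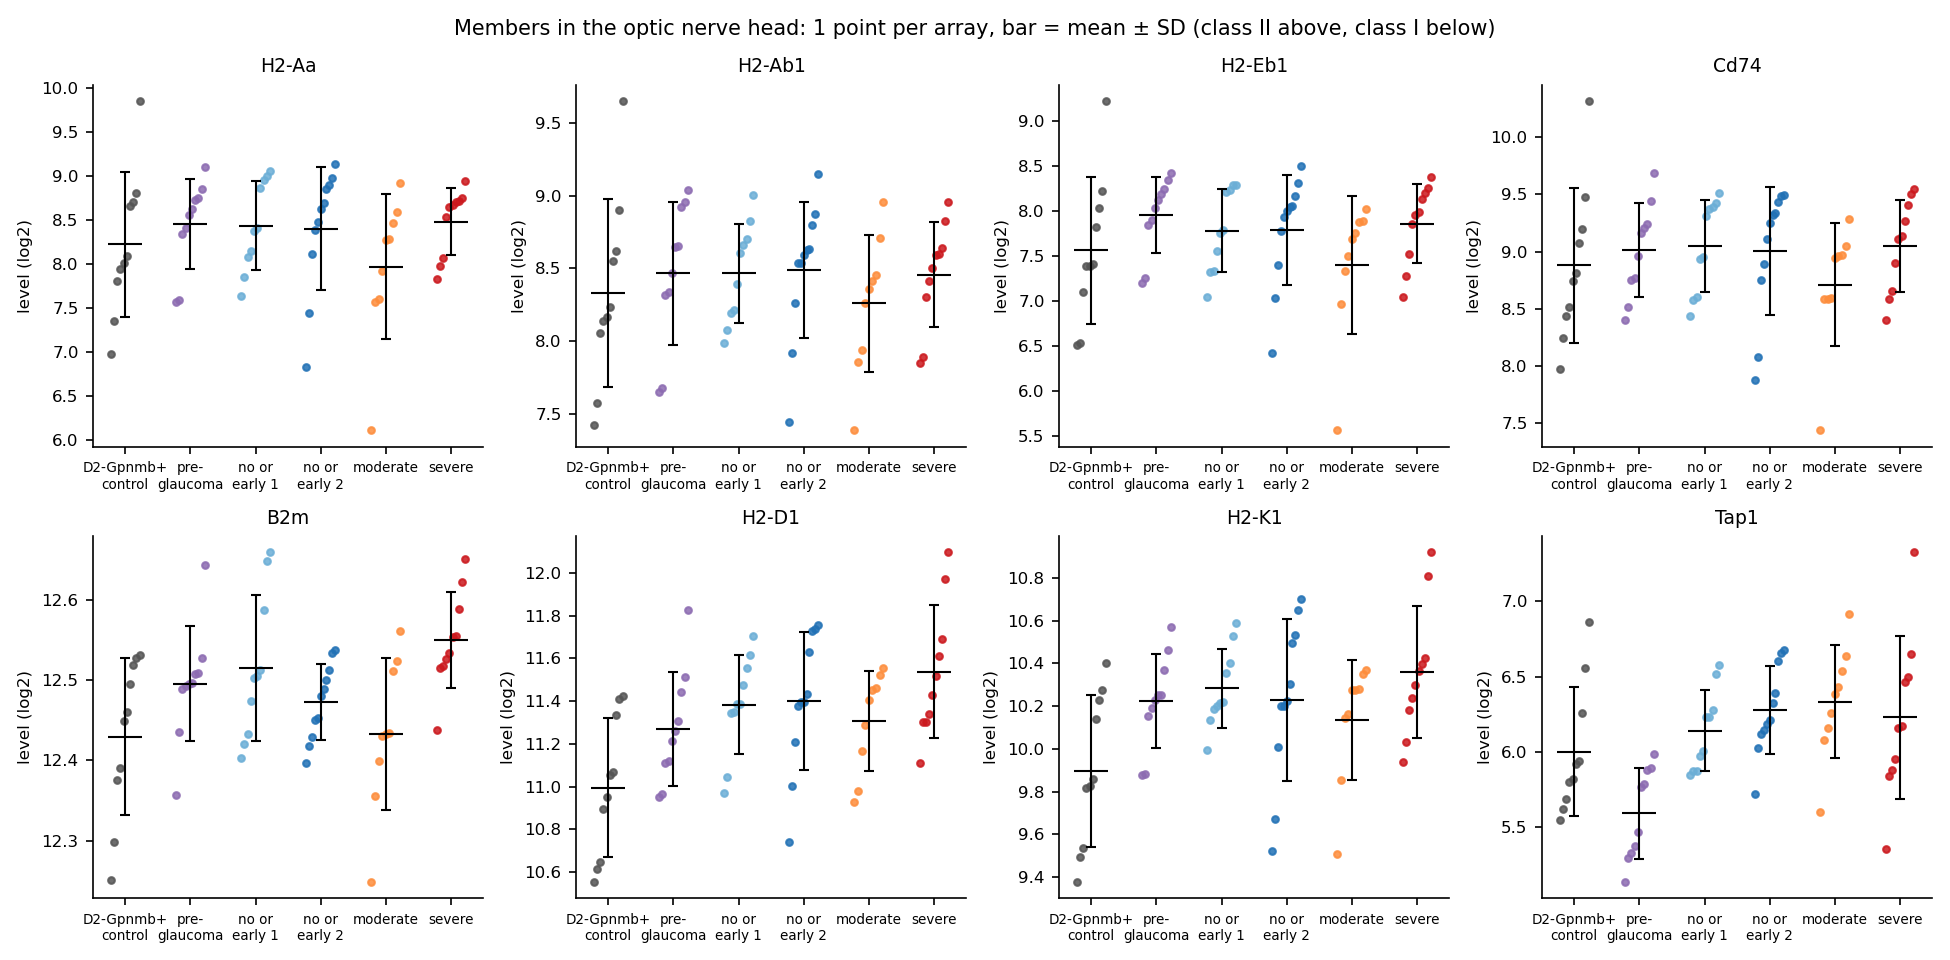
Levels (log2) in the optic nerve head by group for the 4 tested class II members (upper row) and the 4 tested class I members (lower row), with 1 point per array and the mean ± SD as a bar. Class II genes spread over 1 to 3 log2 units within groups, and the control group holds both high and low arrays.

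H2-D1 was also higher in no or early glaucoma than in control. In these optic nerve heads it ran from 10.74 to 11.76 (median 11.39), and the difference from control was 0.40 ± 0.112 (adjusted p = 0.0354). H2-K1 had a difference of 0.36 ± 0.116 there that did not pass (adjusted p = 0.0796). In moderate optic nerve heads H2-D1 (0.31 ± 0.133, adjusted p = 0.0868) and H2-K1 (0.24 ± 0.138, adjusted p = 0.221) did not pass, and in preglaucoma they were at 0.27 ± 0.131 (adjusted p = 0.218) and 0.33 ± 0.136 (adjusted p = 0.142). In the comparisons made between DBA/2J stages none of H2-D1, H2-K1 and B2m was called. In order of its mean, H2-D1 stood at 10.996 in control, 11.27 in preglaucoma, 11.31 in moderate, 11.39 in no or early and 11.54 in severe optic nerve heads, with neighbours among the DBA/2J groups closer than their SDs of 0.232 to 0.311.

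Counted over the optic nerve head members, class I genes made up all calls against control. In severe against control 3 of 8 tested members were called, all higher, where 24.2% of all genes were called and 10.7% higher. In moderate against control 0 of 8 were called (21.6% of all genes), with only H2-D1 at an unadjusted p under 0.05. Leaving out control array 7 and moderate array 5, which stood apart in class II genes, 2 of 8 were called, H2-D1 (0.40, adjusted p = 0.0262) and Tap1 (0.50, adjusted p = 0.03). In no or early against control 1 of 8 was called, H2-D1 (2.86% of all genes, 2.19% higher), and 2 of 8 without those arrays, when H2-K1 passed as well (0.39, adjusted p = 0.0419). Between severe and no or early 0 of 8 were called (13.2%), between moderate and no or early 0 of 8 (7.47%), none of them at an unadjusted p under 0.05, and between severe and moderate 0 of 8 (3.74%), where B2m alone had an unadjusted p under 0.05 (0.12 ± 0.043, adjusted p = 0.131). The median difference of the 8 members from control was 0.24 in severe, -0.03 in moderate and 0.20 in no or early optic nerve heads, beside medians over all genes of 0.00, 0.01 and 0.00. Among mice of the controls' number range only 3 severe arrays remain, and there H2-D1 rose (0.66 ± 0.189, adjusted p = 0.0297), while H2-K1 did not pass (0.58 ± 0.204, adjusted p = 0.0759) and neither did B2m (0.10 ± 0.0752, adjusted p = 0.449). H2-D1 in no or early eyes did not pass there either (0.32 ± 0.188, adjusted p = 0.367).

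Other class I pathway genes in the optic nerve head numbered 16 tested. Of these 5 rose in severe against control (31.2%, beside 24.2% of all genes), 3 rose and 1 fell in moderate (25%, beside 21.6%), and 1 rose in no or early (6.25%, beside 2.86%). Erap1, the endoplasmic reticulum peptidase that trims peptides for class I, rose by 0.87 ± 0.188 in severe (adjusted p = 0.000291), by 0.74 ± 0.192 in moderate (adjusted p = 0.0034) and by 0.58 ± 0.162 in no or early optic nerve heads (adjusted p = 0.0299). In severe optic nerve heads Tapbp, the tapasin gene that bridges class I and the transporter (0.31 ± 0.0649, adjusted p = 0.000185), the chaperone Pdia3 (0.46 ± 0.118, adjusted p = 0.00262) and Nlrc5, the transactivator of class I genes (0.54 ± 0.198, adjusted p = 0.0396), rose as well. Of 13 interferon gamma genes 7 rose in severe (53.8%), 3 in moderate (23.1%, near the 21.6% of all genes) and 0 in no or early optic nerve heads. Irf9, a partner of STAT factors, rose by 0.78 ± 0.149 in severe (adjusted p = 5.72e-05). Cd86, a co-stimulatory ligand for T cells, rose by 0.73 ± 0.259 in severe and by 1.00 ± 0.265 in moderate optic nerve heads (adjusted p = 0.0305 and 0.00443). It was the 1 called of 6 co-stimulation genes tested, or 16.7%, under the share of all genes at both stages.

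Marker lists of immune and other cells were counted in the same groups. Of all genes, 24.2% were called in severe, 21.6% in moderate and 2.86% in no or early optic nerve heads against control. Of 14 microglia and macrophage markers 10 rose in severe, 11 in moderate and 5 in no or early optic nerve heads against control. Their mean level ran from 7.82 to 8.72 in severe, from 7.30 to 8.85 in moderate and from 6.91 to 8.14 in control arrays. In preglaucoma 5 of the 14 were also called against control (35.7%, beside 6.08% of all genes). Between severe and no or early 0 of 14 were called (13.2% of all genes). Between moderate and no or early 1 of 14 was called (7.14%, beside 7.47% of all genes). Of 6 tested monocyte and neutrophil markers 6 rose in severe and 5 in moderate optic nerve heads. Of 3 tested dendritic cell markers 1 rose in each of severe, moderate and no or early. Of 4 tested T and NK cell markers 1 rose in severe and in moderate, or 25%, near the share of all genes. Of the other lists, 7 of 9 reactive glia genes rose in severe optic nerve heads against control, while 7 of 8 ganglion cell genes and 6 of 7 pigment epithelium genes fell. None of 8 photoreceptor genes was called, with list means from 4.20 to 10.39 in severe and from 8.28 to 10.70 in control arrays. The part of any of these cells in the class I levels was not tested.

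Class II members were not called against control at any stage in the optic nerve head, although microglial markers rose against control. Cd74 ran from 7.97 to 10.32 in control (median 8.78), from 8.40 to 9.68 in preglaucoma (median 9.06), from 7.88 to 9.51 in no or early (median 9.25), from 7.44 to 9.28 in moderate (median 8.94) and from 8.40 to 9.55 in severe arrays (median 9.12). All groups overlapped. Differences of Cd74 from control were 0.17 ± 0.229 in severe (adjusted p = 0.643), -0.16 ± 0.234 in moderate (adjusted p = 0.682) and 0.15 ± 0.197 in no or early optic nerve heads (adjusted p = 0.767). H2-Aa, H2-Ab1 and H2-Eb1 differed by 0.25 ± 0.289, 0.12 ± 0.214 and 0.29 ± 0.271 in severe against control, none of them called. Their standard errors, 0.214 to 0.289 with Cd74 included, were larger than the 0.13 of H2-D1, so that only larger changes could pass. The other class II pathway genes included risers among lysosomal proteases, with 5 of 16 higher and 1 lower in severe (37.5%, beside 24.2% of all genes). Ctsb, a cathepsin, rose by 0.42 ± 0.0757 (adjusted p = 2.04e-05) and Lgmn, which cuts antigens, by 0.53 ± 0.129 (adjusted p = 0.00127). H2-DMb2, a chain of the loading chaperone, rose by 0.94 ± 0.317 (adjusted p = 0.0222). Of this list 6 of 16 were called in moderate against control (37.5%, beside 21.6% of all genes). In no or early and in preglaucoma 4 of 16 were called against control (25%, beside 2.86% and 6.08% of all genes). Between severe and no or early 0 of 16 were called (13.2% of all genes), and between moderate and no or early 1 of 16 (7.47%).

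The wide spread of class II genes lay between eyes, including the eyes of 1 mouse. In 10 mice with both optic nerve heads measured, left and right differed by a median of 0.71 in Cd74, 0.81 in H2-Aa, 0.85 in H2-Ab1 and 0.95 in H2-Eb1, against 0.08 in B2m, 0.40 in H2-D1 and 0.49 in H2-K1. Neither side was regularly higher, with the left eye above the right in 6 of 10 mice for Cd74 and in 5 of 10 for H2-Aa. The largest gap was in a control mouse, whose left eye (control 6) had the lowest control levels of Cd74 and H2-Aa, 7.97 and 6.98, and whose right eye (control 7) had the highest of all optic nerve heads, 10.32 and 9.86.

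**Figure D4:**
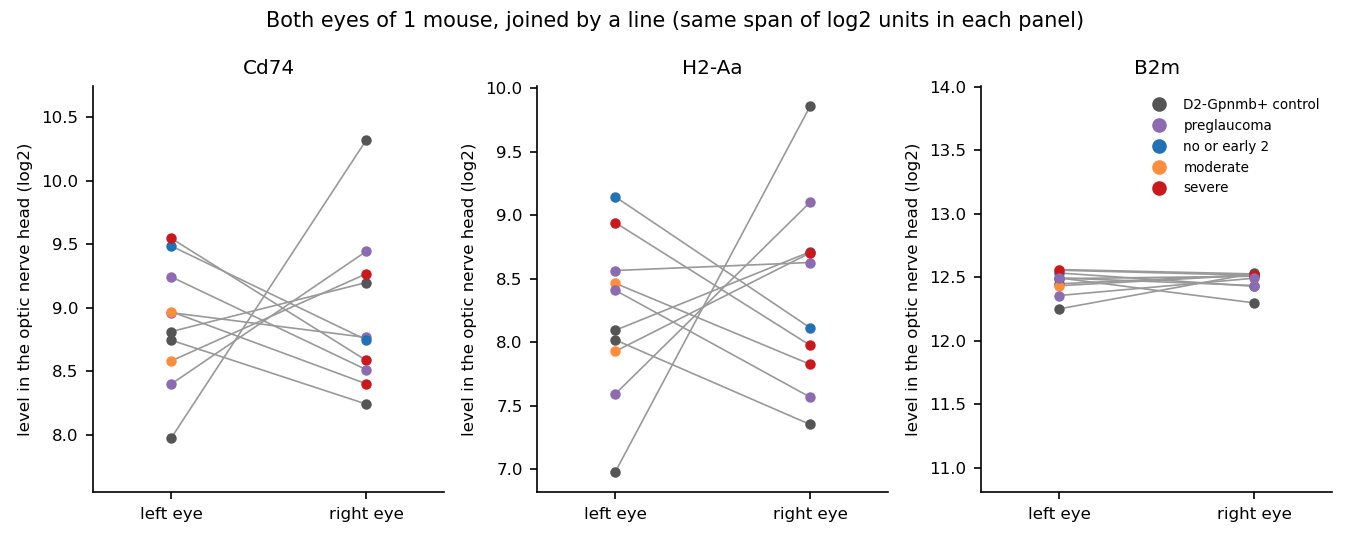
Levels (log2) of Cd74, H2-Aa and B2m in the left and the right optic nerve head of the 10 mice with both measured, joined by a line per mouse, with the same span of 3.2 log2 units in each panel. Lines cross in both directions for Cd74 and H2-Aa and are nearly flat for B2m.

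In control optic nerve head 7, 6 of 7 B cell markers and 5 of 11 T and NK cell markers were above every other control. The other 6 T and NK cell markers and all 9 dendritic cell markers lay inside the range of the other controls. The genes given here were picked after their values were seen. Ighm, the heavy chain of immunoglobulin M, was at 12.42 there, against 4.64 to 8.53 in the other 9 controls, the highest of all optic nerve heads. The B cell receptor subunit Cd79b was at 6.63 against 4.15 to 4.91, the B cell surface gene Ms4a1 at 5.25 against 3.01 to 3.67, and Cd79a at 4.79 against 3.32 to 3.62. Among T cell genes, Cd3g (5.68 against 2.94 to 4.32), Cd2 (6.65 against 3.25 to 4.08) and Cd3e (7.02 against 4.49 to 6.01) were above the other controls, and Cd8a (3.98 against 3.80 to 4.65) was not. The B cell factor Pax5 was at 2.75, inside the range of the other controls (2.71 to 3.14). Of the B cell list Ighm alone reached the filter. The mean of the microglia and macrophage list was 7.77 in this array and 6.91 in the other eye of the mouse. Moderate optic nerve head 5 was the opposite case, with H2-Aa at 6.11, H2-Eb1 at 5.56 and Cd74 at 7.44, a microglia list mean of 7.30 and a monocyte and neutrophil list mean of 5.69, the lowest of the moderate group in both lists. The part of these cells in the class II levels was not tested.

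Tap1 was the 1 member called between no or early and preglaucoma eyes, with overlap. It ran from 5.72 to 6.68 in no or early (median 6.22) and from 5.14 to 5.99 in preglaucoma optic nerve heads (median 5.62), with 16 of 21 no or early arrays above the highest preglaucoma array. It rose by 0.61 ± 0.146 (adjusted p = 0.0026), in a comparison where 14.6% of all genes were called and 9.83% higher. Tap2, its partner in the transporter, rose by 0.48 ± 0.129 (adjusted p = 0.0075). Tap2 was the 1 called of the 16 tested genes of the class I pathway list (6.25%, under the 14.6% of all genes). Against control, Tap1 was at -0.40 ± 0.171 in preglaucoma (adjusted p = 0.161), and 0 of 8 members were called by limma in that comparison (6.08% of all genes), with Tap1, H2-D1 and H2-K1 at an unadjusted p under 0.05. Age, stage of disease and the mouse number range, which preglaucoma shares with no other group, all separate no or early from preglaucoma eyes and cannot be told apart. Ciita lay under log2 5 on every array, with means from 3.34 in preglaucoma to 3.78 in moderate optic nerve heads and from 3.28 to 3.45 in the retina groups. At such levels a probe set near its background cannot show that the transactivator is absent. With no filter Ciita was higher in no or early than in preglaucoma optic nerve heads (0.34 ± 0.105, adjusted p = 0.0116). In that comparison limma then called 5141 of 18194 genes, so the call is not particular to Ciita. Tap1, also with no filter, was higher in moderate than in control retinas (0.35 ± 0.116, adjusted p = 0.0471).

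Other probe sets of the members mostly moved as the chosen ones in severe optic nerve heads and in moderate retinas. In severe against control optic nerve heads all 7 tested H2-D1 probe sets other than a dim one taken up later were higher (differences of 0.35 to 0.64, the chosen one included), as were 3 of 3 of H2-K1 and 2 of 2 of B2m. In moderate against control retinas 6 of 6, 3 of 3 and 2 of 2 were higher. In severe retinas both B2m probe sets and 1 of 3 of H2-K1 were higher and 0 of 6 of H2-D1. In no or early against control optic nerve heads, where H2-D1 was called, only 2 of its 8 tested probe sets were higher. Their differences ran from -0.16 to 0.43 over all 8, the dim one included. DBA/2J mice carry the H2d haplotype, class I genes are many and nearly alike, and most of these probe sets can also bind other class I transcripts, so the split between H2-D1 and H2-K1 is uncertain. All groups share the DBA/2J background.

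1 dim H2-D1 probe set did not follow the others. It ran from 4.26 to 5.00 in severe and from 4.75 to 5.71 in preglaucoma optic nerve heads, while all 40 other optic nerve heads, controls included, lay between 2.54 and 3.68. The chosen H2-D1 probe set showed no such split. The dim probe set was singled out for this split, so no test is given, and levels near or under log2 5 do not give reliable sizes. In the retina it averaged 4.28 ± 0.708 in severe and 3.16 ± 0.298 in control arrays (n = 10 each). Of all 45101 probe sets, 107 had every severe and preglaucoma optic nerve head above every other one and 0 below, and in the other 14 pairings of groups at most 9 probe sets stood apart in this way. The labels give no shared handling of these groups, and the part of whatever they share in other severe and preglaucoma differences was not tested.

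**Figure D5:**
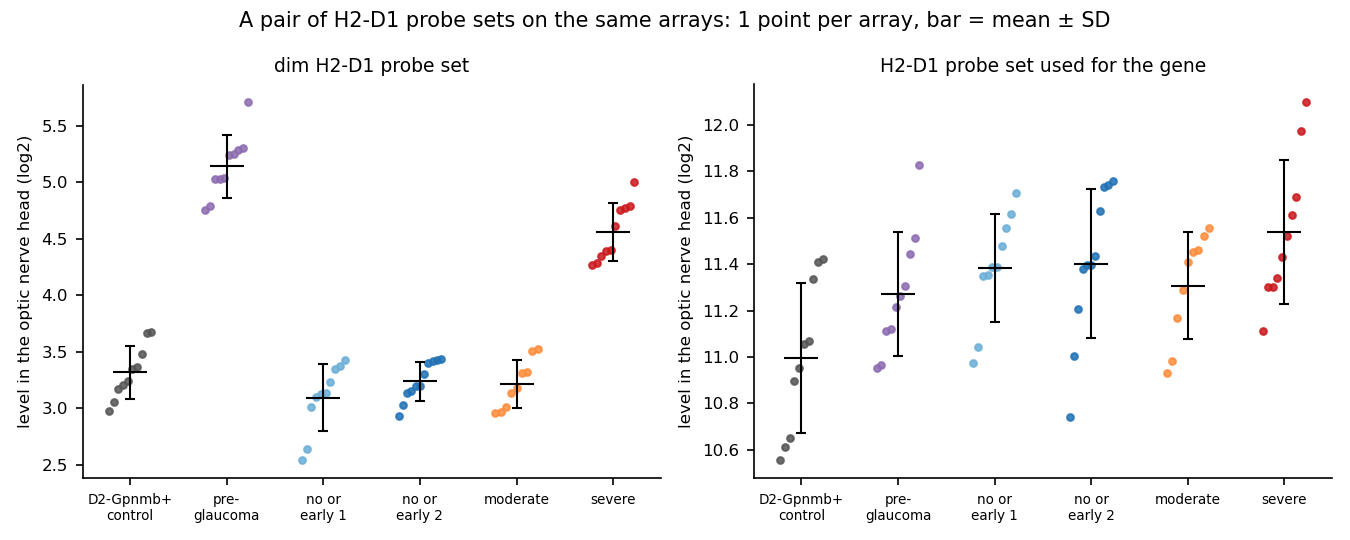
Levels (log2) of a dim H2-D1 probe set and of the probe set used for H2-D1 in the optic nerve head by group, with 1 point per array and the mean ± SD as a bar. In the dim one the preglaucoma and severe arrays lie above 4.26 and the 40 others below 3.68.

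Some pairs of members deviated together between mice of the same group, within and across the classes. Deviations from the group mean were averaged per mouse, 17 relations were tested with 100000 permutations (two-sided), and p-values were adjusted over them. In the optic nerve head Cd74 went with H2-Aa (Pearson r = 0.93, Spearman rho = 0.89, adjusted p = 5.67e-05 and 8.5e-05, which rest on the smallest p the permutations can give; r = 0.88 without the 2 mice farthest from the median) over 50 mice. H2-K1 went with B2m (r = 0.52, rho = 0.52, permutation adjusted p = 0.00051 and 0.00102; r = 0.41 without 2 mice) and with Cd74 (r = 0.59, rho = 0.51, permutation adjusted p = 5.67e-05 and 0.00102; r = 0.51 without 2 mice). Cd74 and Ciita did not pass (r = 0.29, rho = 0.29, permutation adjusted p = 0.0848 and 0.0784; r = 0.29 without 2 mice).

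In the retina, over 41 mice, H2-K1 went with B2m (r = 0.88, rho = 0.70, permutation adjusted p = 5.67e-05 and 8.5e-05; r = 0.76 without 2 mice) and with Cd74 (r = 0.56, rho = 0.51, permutation adjusted p = 0.000544 and 0.00248; r = 0.61 without 2 mice). Cd74 with H2-Aa gave r = 0.32 and rho = 0.38 (permutation adjusted p = 0.0848 and 0.0371; r = 0.33 without 2 mice). Between the optic nerve head and the retina of the same eye, neither coefficient passed for 5 of the 6 members tested in both tissues (adjusted p of 0.055 or more), which does not show that the levels were unrelated. For H2-K1 they ran in opposite directions, with rho = -0.47 (permutation adjusted p = 0.00524) but r = -0.33 that did not pass (adjusted p = 0.0848; r = -0.32 without 2 mice).

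Genes with the most similar pattern to each class are given as a description over all arrays of a tissue, after the group means were removed. In the optic nerve head (60 arrays) the mean of the 4 class II members went most closely with H2-Ea, the alpha chain of I-E (r = 0.93), St8sia4, a sialyltransferase (r = 0.82), Ptprc, the CD45 gene of leukocytes (r = 0.82), the chemokine receptor Ccr2 (r = 0.80) and the chemokine Cxcl12 (r = 0.79). The mean of the 4 class I members went with the immunoproteasome genes Psmb8 (r = 0.88) and Psmb9 (r = 0.85), followed by Lgals3bp, Ly6e and Lgals9. In the retina (48 arrays) the 3 tested class I members went with Tyrobp, a microglial signalling adaptor (r = 0.92), Ctsh (r = 0.89), Mpeg1, a macrophage pore-forming gene (r = 0.89), Xaf1 (r = 0.88) and Ctsd (r = 0.88). The 3 tested class II members there went with the interferon-induced genes Ifit3 (r = 0.79) and Ifit1 (r = 0.77), with Ctsh and Cobl (r = 0.78 each) and with Serping1 (r = 0.77). Arrays of a tissue share normalization, and arrays that stand apart weigh heavily in such coefficients.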

How the data were processed

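RNA was amplified and labelled with a NuGEN Ovation kit and hybridized to Affymetrix arrays, per the labels' protocols. The authors' deposited values are log2 signals, with GCOS, RMA and the affy package named in the submitters' processing notes; whether both tissues were normalized together is not given in the sources used here. Scanner files were not used here. From the deposited table, 34958 of 45101 probe sets were assigned to exactly 1 gene by the platform annotation and kept; 932 with several genes (3 of them shared by H2-D1 or H2-K1 with other genes) and 9211 with none were left out. The test was limma 3.58.1 under R 4.3.3, run per tissue on every group at once, taking the mouse, read from the number shared by left and right eyes, as a random block (within-mouse correlation 0.0774 in the optic nerve head, 0.0366 in the retina, 0.0987 for the tissue difference). Nothing else says which samples are separate animals. Genes were filtered and called as stated with the results, and the number of arrays limits the precision.

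All 9 members were named in every comparison, with up to 4 called genes of each list by size and the 5 genes most like each class. Members and lists were chosen with earlier results of these data known. Alternatives were array weights, no filter, the mean of all probe sets, no mouse block, a replicate number block, only the groups compared, the leading digits of the mouse number as a term or only the controls' number range, leaving out a mouse whose Xist level goes against its female label, and another quantile normalization. Alternatives that left out arrays standing apart were added after seeing the data. Replicate numbers of different stages were not taken to pair the arrays in the main fits. The fit of severe against control optic nerve heads was tested on simulated data in which a gene had the same spread in every group. The retina and the tissue difference were not simulated.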

Additional observations from a re-analysis of the deposited data

Results flagged for a closer look

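In 6 of 90 groups of member values 1 array lay farther from the rest than Dixon's criterion for a gap allows, which chance does in about 1 in 20 groups. Moderate optic nerve head 5 was the lowest of its group in H2-Aa (6.11), H2-Eb1 (5.56) and Cd74 (7.44). Control optic nerve head 7 was the highest of its group in Ciita (4.57). In the moderate retinas, replicate 1 was the highest in Ciita (3.79) and replicate 2 in Tap1 (5.75), both near or below the level at which genes were tested.

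The difference of B2m from control was smaller in the optic nerve head than in the retina of the same eyes, by a log2 difference of -0.68 in severe and of -1.03 in moderate eyes, and this difference between tissues passed the test in both.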

How the results depend on the processing

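Over 1203 values of members under the alternatives to the processing 1165 kept their side of the threshold, 22 lost it, 16 gained it and no called value changed sign, while 38 uncalled ones did. Counts of members called that moved by more than 1.5 times were as follows. With array weights they were 3 (not 0) for moderate and 2 (not 1) for no or early against control, 2 (not 1) for no or early against preglaucoma and 1 (not 0) for preglaucoma against control in the optic nerve head, and 4 (not 2) for severe against control in the retina. With the mean of all probe sets, which takes in the dim H2-D1 probe set, the optic nerve head gave 0 for no or early against control, 0 for no or early against preglaucoma (Tap1 was under the filter there and not tested), and 1 for preglaucoma against control, severe against moderate and severe against no or early; the retina gave 1 for severe against no or early. With the leading digits of the mouse number as a term the counts were 0 for no or early optic nerve heads and 1 for severe retinas, both against control. With the controls' number range alone they were 1 for severe and 0 for no or early optic nerve heads, 1 for severe and 0 for moderate retinas and 0 for the moderate tissue difference. No filter gave 2 for no or early against preglaucoma, because Ciita was then tested, and only the groups compared gave 2 for moderate retinas. A replicate number block gave 2 for no or early against control in the optic nerve head. Arrays of the same number in different stages had a median correlation of 0.106 there, against -0.0173 for other numbers. In the retina these were -0.0013 and 0.0011. Without severe 3 and 6, 1 member was called in severe against control optic nerve heads. Without control 7 and moderate 5, 2 members were called in moderate and 2 in no or early optic nerve heads; without moderate 2 and 8, 1 for severe against moderate retinas. Smaller moves, of 1 call each, included B2m lost in severe against control optic nerve heads with only the groups compared and Tap1 gained in moderate against control and severe against moderate retinas with no filter. Where no cause is given, the cause was not tested. The fits with the number range were possible only where groups share one, and some fits of only the groups compared had no estimable within-mouse correlation and used no block. Retinal class II genes lie near the floor of the arrays, which limits what their differences show. Counts over all genes moved too. Moderate against control retinas had 1753 calls, against 965 with the number term, 760 without moderate 2 and 8, 652 with only the groups compared and 170 in the controls' number range. In that range severe and moderate against control optic nerve heads had 1471 and 204 calls in place of 2931 and 2611. No or early against control optic nerve heads ranged from 91 to 1392 calls around 346, and preglaucoma against control had up to 3505 in place of 736.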

Other observations

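The B cell marker Ms4a1 reached 6.78 in another optic nerve head than control 7, and the T cell gene Cd3e reached 7.75, so raised lymphocyte markers were not limited to that control array. In 1 mouse whose left eye was labelled moderate and whose right eye was labelled severe, the left retina was moderate replicate 2, with B2m at 12.11, H2-D1 at 10.40 and H2-K1 at 8.95. Between the eyes of the 7 mice with both retinas measured, the largest gaps were 1.93 in B2m, 1.94 in H2-D1 and 1.67 in H2-K1, while the median gaps were 0.24, 0.21 and 0.20.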
